A study of Mus musculus with 24 samples.

Results

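The clustered protocadherins are cell-surface cadherins encoded by a tandem array of alpha, beta and gamma genes on mouse chromosome 18. All entries annotated as protein coding with a symbol beginning Pcdha, Pcdhb or Pcdhg in at least 1 of the authors' 4 deposited comparison tables were taken, which gave 24 of the 38355 counted genes and of the 16355 genes in those tables. They were 22 beta genes, Pcdhb1 to Pcdhb22, 1 alpha entry and 1 gamma entry. The rule itself uses symbols and biotypes, although a gene is listed in a deposited table only above a base mean of 10. The set was chosen with earlier results of these data known.

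In the alpha and gamma clusters, each of many variable first exons, with its own promoter, is spliced to constant exons shared by the whole cluster, whereas each beta protein is encoded by a single large exon. Promoter choice is stochastic in many neurons, where the architectural protein CTCF and cohesin join an enhancer to a chosen promoter, and each neuron displays its own set of isoforms. The proteins bind like isoforms on apposed membranes and are known for their part in dendrite self-avoidance, axon tiling, neuronal survival and synapse development, in the hippocampus among other places.

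Polyadenylated RNA was sequenced from the dissected CA1 subfield of C57BL/6J mice aged 3 to 5 months. All mice were homozygous for a floxed allele of Kat2a (Kat2afl/fl), the gene of a histone lysine acetyltransferase that works within the SAGA and ATAC complexes. Conditional knockout (cKO) mice also carried Cre under the CamKII-alpha promoter (CamKII_alpha-cre+), and control mice carried the floxed alleles without Cre. That promoter is active in excitatory forebrain neurons, whereas whole CA1 tissue was sequenced, so interneurons, glia and vessels of a cKO sample would keep the gene. There were 7 cKO libraries and 5 control libraries from mice taken after 15 min of novelty exposure, and 6 cKO libraries and 6 control libraries from naive mice, which had no exposure. The design asks what the loss of Kat2a changes, what novelty changes, and whether the second depends on the first.

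Kat2a itself stood at 31.0 to 38.1 CPM (counts per 1 M assigned reads) in cKO novelty libraries, against 56.1 to 64.3 CPM in control novelty libraries, and at 32.1 to 38.9 CPM in cKO naive libraries, against 58.6 to 70.4 CPM in control naive libraries. Assigned reads ranged from 10.7 to 35.8 M (mega) reads per library, with a median of 19.01 M. The labels do not say that the libraries of a group came from separate animals, so p-values measure the spread between these libraries, which may be technical in part. In bulk tissue, fewer cells of a type and less RNA per cell cannot be told apart.

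The alpha and gamma entries are named for single isoforms but span more than those isoforms. The alpha entry bears the name Pcdhac1, a C-type alpha isoform, but its deposited span, chr18:36930285-37187657 on the plus strand of GRCm38, covers 257373 bases. It takes in the starts of all 14 alpha genes of the GENCODE M21 annotation. A start slightly before the first base of a span was counted as inside, for this entry and for the gamma entry. The gamma entry bears the name Pcdhgc4, a C-type gamma isoform that neurons need for survival during development, and its span, chr18:37674335-37841873, covers 167539 bases and the starts of 19 of the 21 gamma genes. Of those separate gene models, 1 of 14 alpha and 1 of 21 gamma genes are listed in the count tables, against 22 of 22 beta genes. The 2 entries are therefore called the alpha entry and the gamma entry, and nothing below is about the isoforms they are named for or about the choice between isoforms. The beta genes run from chr18:37264998 to chr18:37521419 on the same strand, between the other clusters.

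All clusters were well transcribed in CA1. The gamma entry had 698 ± 37.9 CPM over the 24 libraries (SD, n = 24), the alpha entry 214 ± 10.3 CPM, and the 22 beta genes together 195 ± 10.01 CPM. These are levels of whole entries, not corrected for length, and no source used here gives the exons counted for the alpha and gamma entries, so the clusters cannot be ranked per length. Levels are CPM values computed from the counts with TMM-scaled library sizes. The summed beta level varied little between libraries, from 173 to 216 CPM, on 2287 to 7164 reads per library.

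**Figure D1:**
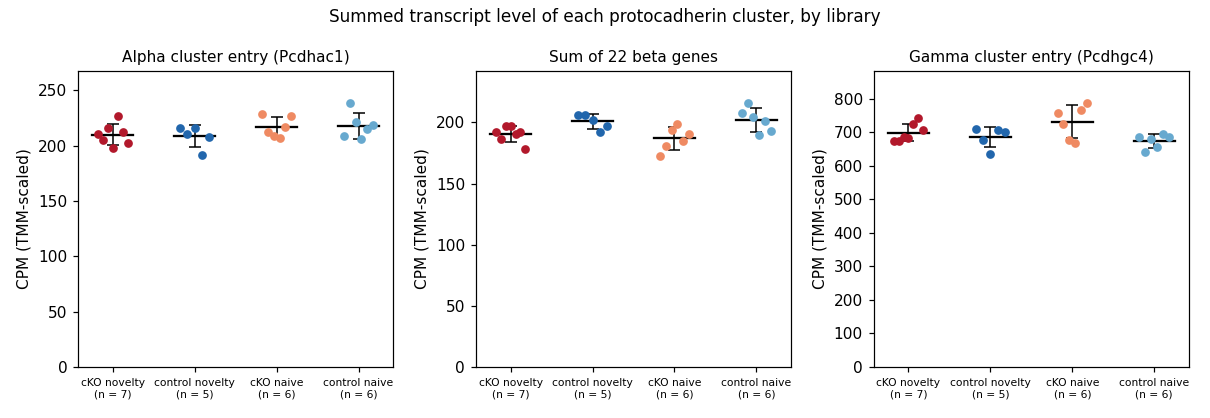
Level of the alpha entry, of the 22 beta genes summed and of the gamma entry in each library, in CPM on linear axes that start at 0. Points are libraries, and horizontal lines with bars are the group mean and SD. The summed beta level lies between 173 and 199 CPM in cKO libraries, against 189 to 216 CPM in control libraries, and the alpha groups overlap throughout.

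Among the beta genes, levels per length fell into a few high genes and a long, gradually falling series below them. The order depends on the annotated exon length inside each deposited span, from 2.34 kilobases in Pcdhb8 to 7.13 in Pcdhb19. Per kilobase of GENCODE M21 exon, Pcdhb9 was at 6.27 ± 0.593 CPM and Pcdhb17 at 6.15 ± 0.377 CPM (SD, n = 24), which did not differ beyond their spread. Pcdhb20 followed at 4.33 ± 0.355 CPM per kilobase, then Pcdhb12 at 3.70 ± 0.577 and Pcdhb14 at 3.11 ± 0.384. The next 16 genes, Pcdhb7, Pcdhb22, Pcdhb13, Pcdhb16, Pcdhb3, Pcdhb11, Pcdhb19, Pcdhb15, Pcdhb5, Pcdhb18, Pcdhb10, Pcdhb2, Pcdhb8, Pcdhb21, Pcdhb6 and Pcdhb4 in falling order, spanned 3.03 to 1.03 CPM per kilobase. Pcdhb1, which lies first in the cluster, was lowest at 0.204 ± 0.145 CPM per kilobase.

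In that order, only 5 of 21 neighbouring pairs differed by more than the larger SD of the pair. They were the steps below Pcdhb17, Pcdhb20, Pcdhb12, Pcdhb2 and Pcdhb4. Not corrected for length, Pcdhb17 gave 10.3% of all beta reads, Pcdhb9 9.84%, Pcdhb20 7.56% and Pcdhb1 0.257%. Beta genes share stretches of sequence, which limits unique counting. Between 0.00% of the 50-base words of Pcdhb1 and 11.99% of those of Pcdhb12 also occurred in another beta gene of the reference. The words come from whole annotated transcripts, some of which reach beyond the deposited span. Pcdhb22, for example, has 6606 words but 3067 exon bases inside its span. The shares within the spans may therefore differ, and so may the gene with the highest share. Against all genes of the reference the share for Pcdhb12 was 64.22%, where an antisense gene that the count tables do not list is annotated over part of the same locus. Pcdhb21 overlaps another counted gene over 443 exon bases. Reads that matched more than 1 place made up 14.8 to 17.97% of all reads of a library, and 1.06 to 1.18% were set aside as ambiguous, so the levels of the most alike genes may be too low.

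**Figure D2:**
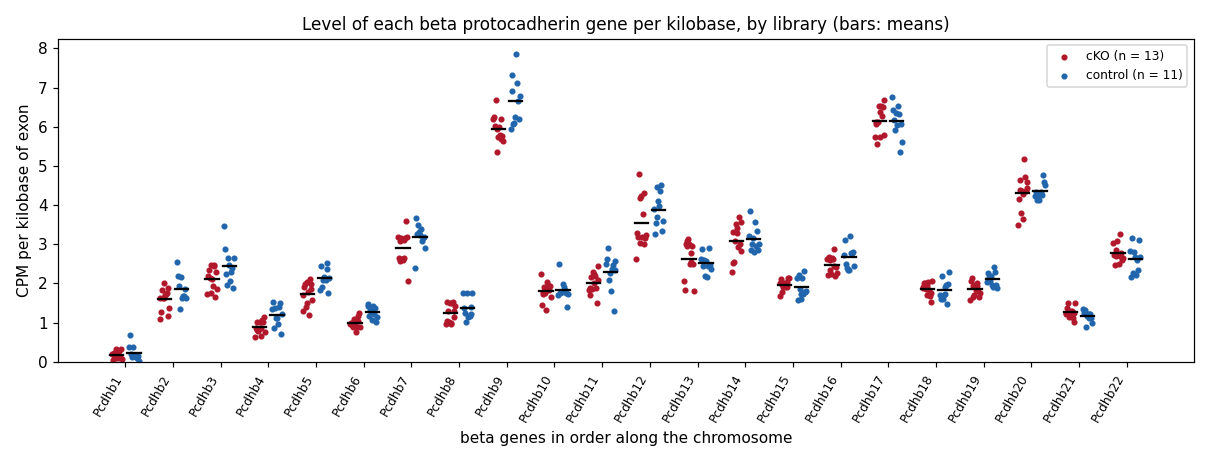
Level of each beta gene in CPM per kilobase of exon, in order along the chromosome, with cKO libraries (n = 13) left of control libraries (n = 11) for each gene. Points are libraries and bars are means. Pcdhb9 and Pcdhb17 average 6.27 and 6.15 CPM per kilobase over all libraries and Pcdhb1 0.204.

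The comparison of cKO with control libraries over both exposures asks which members depend on Kat2a. Of the 24 members, 5 were lower in cKO libraries and 0 were higher by edgeR's quasi-likelihood test with Benjamini-Hochberg adjustment over all 16744 genes tested, with an adjusted p below 0.05 taken as the threshold. All 5 were beta genes: Pcdhb4, Pcdhb5, Pcdhb6, Pcdhb9 and Pcdhb19. Among all genes tested, 6.32% were lower and 5.72% were higher, 12% in all. That is 1059 genes lower and 958 higher, against 843 lower and 1190 higher with upper-quartile scaling, under which the same 5 members were lower. At an unadjusted p below 0.05 there were 7 of 24 members, against 26.6% of all genes, a share close to that of genes at large. The median log2 fold change of the members was -0.07, against 0.01 for all genes tested, and 15 of 24 members were below 0, against 48.0% of all genes.

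Pcdhb4, at chr18:37307455-37311173, had the largest fold change of those that passed. Its level was 2.46, 3.74 and 4.28 CPM (lowest, median, highest) in the 7 cKO novelty libraries, against 3.62, 5.24, 5.62, 2.69 and 4.51 CPM in the 5 control novelty libraries. In naive mice it was 2.40, 3.08 and 3.79 CPM in the 6 cKO libraries, against 3.24, 4.59 and 5.67 CPM in the 6 control libraries. All 13 cKO libraries lay below the median of the 11 control libraries, but only 2 lay below their whole range, so the groups overlapped. Such counts of libraries, here and below, were not made over all genes. The 5 genes were picked by the same values, so the counts describe them and add no evidence. This was a log2 fold change of -0.44 with an SE of 0.12 (edgeR adjusted p = 0.0131).

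Pcdhb5, at chr18:37320381-37323913, is the next gene along the cluster. It had 4.22, 6.59 and 7.48 CPM in cKO novelty libraries, against 7.38, 8.33, 8.87, 6.25 and 7.59 CPM in control novelty libraries. The 6 cKO naive libraries had 4.62, 5.67 and 7.00 CPM, against 6.46, 7.46 and 8.61 CPM in the 6 control naive libraries. Again all 13 cKO libraries were below the control median, and 6 were below every control library. This was a log2 fold change of -0.31 with an SE of 0.09 (adjusted p = 0.0186).

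Pcdhb6, at chr18:37333946-37336398, followed with the smallest p of the members. Its level was 1.87, 2.28 and 3.03 CPM in cKO novelty libraries, against 3.52, 3.00, 3.36, 2.47 and 2.79 CPM in control novelty libraries. In naive mice it was 2.19, 2.39 and 2.67 CPM in cKO libraries, against 2.62, 3.18 and 3.60 CPM in control libraries. It had the cleanest separation of the 5 genes, with 8 of 13 cKO libraries below all control libraries and all 13 below their median. This was a log2 fold change of -0.34 with an SE of 0.08 (adjusted p = 0.0078). It rests on few reads, 25 to 104 per library. Its variation beyond counting noise, as edgeR estimates it, was 0.390 of the trend for genes of that level. That was the lowest ratio among the members, and it leaves out the counting noise of so few reads.

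Pcdhb9, at chr18:37400855-37403909, is one of the 2 most abundant beta genes. It had 17.2, 17.6 and 18.9 CPM in cKO novelty libraries, against 23.98, 21.7, 20.3, 19.0 and 20.7 CPM in control novelty libraries. Among naive mice the level was 16.3, 18.6 and 20.4 CPM in cKO libraries, against 18.1, 18.9 and 22.3 CPM in control libraries. The novelty groups did not overlap, although the highest cKO library and the lowest control library nearly met, whereas the naive groups overlapped widely. The averaged log2 fold change was -0.17 with an SE of 0.04 (adjusted p = 0.0143).

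Pcdhb19, at chr18:37496997-37504127, lies in the second part of the cluster. It had 11.9, 13.1 and 14.4 CPM in cKO novelty libraries, against 13.6, 17.2, 16.3, 14.02 and 13.5 CPM in control novelty libraries. In naive mice it had 11.3, 12.97 and 15.3 CPM in cKO libraries, against 14.03, 15.1 and 16.1 CPM in control libraries. Most but not all cKO libraries were low, with 11 of 13 below the control median and 7 below every control library. This was a log2 fold change of -0.18 with an SE of 0.06 (adjusted p = 0.0301). The call was lost without control novelty library 2 (adjusted p = 0.0807), control novelty library 3 (0.0602), cKO naive library 1 (0.0532) or cKO naive library 5 (0.0513). The calls of the other 4 genes held without any 1 of the 24 libraries.

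**Figure D3:**
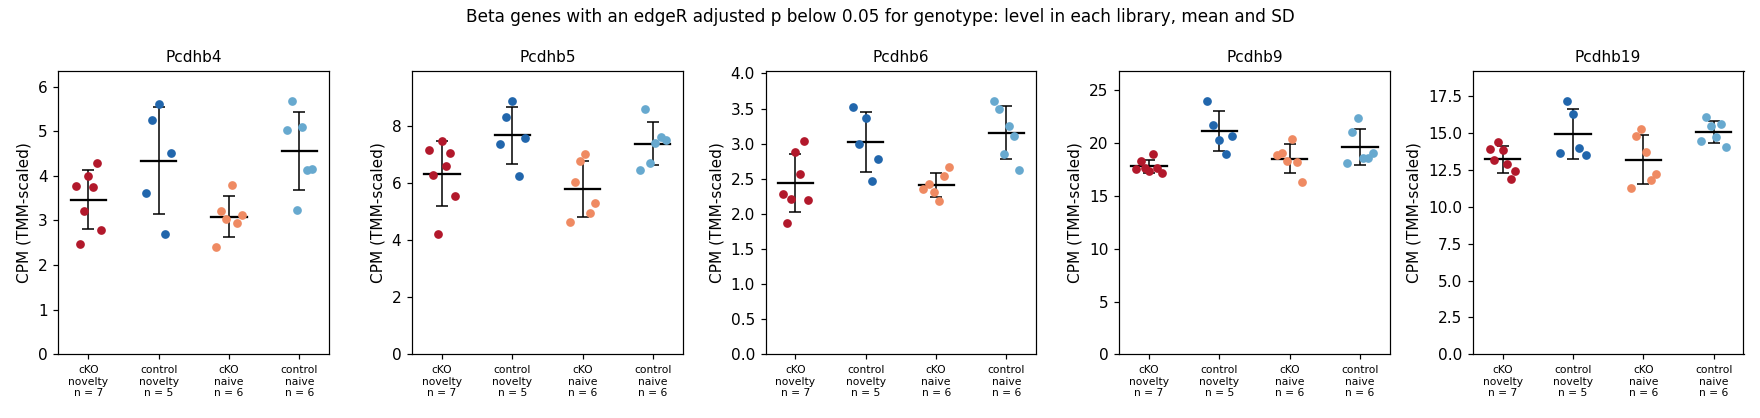
Level of the 5 beta genes with an edgeR adjusted p below 0.05 for genotype in each library, in CPM on linear axes that start at 0. Points are libraries, and lines with bars are the group mean and SD. In each panel both cKO means lie below the control mean of the same exposure, and in the Pcdhb9 panel the novelty groups do not overlap.

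The alpha entry differed between genotypes by less than the spread between libraries. It had 198, 211 and 227 CPM in cKO novelty libraries, against 216, 211, 216, 192 and 208 CPM in control novelty libraries. Without exposure the entry had 207, 215 and 228 CPM in cKO libraries, against 206, 217 and 239 CPM in control libraries, and the groups overlapped in full. The averaged log2 fold change was 0.00 ± 0.03 (SE), with a 95% interval of -0.06 to 0.06, which is 96.1 to 104% of the control level (edgeR adjusted p = 0.968).

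The gamma entry did not pass. It had 674, 687 and 741 CPM in cKO novelty libraries, against 710, 677, 636, 707 and 701 CPM in control novelty libraries. In naive mice it had 668, 742 and 789 CPM in cKO libraries, against 640, 682 and 694 CPM in control libraries. In naive mice 4 of 6 cKO libraries were above every control library, and the novelty groups overlapped. The averaged log2 fold change was 0.07 with an SE of 0.03 (adjusted p = 0.0818), with a 95% interval of 0.02 to 0.13. It passed with upper-quartile scaling (adjusted p = 0.042) or without cKO naive library 4 (0.0410).

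The other highest beta genes stayed close to the control level. Pcdhb17 had 18.7, 20.8 and 21.9 CPM in cKO novelty libraries, against 21.4, 20.7, 17.5, 19.8 and 18.3 CPM in control novelty libraries, and 18.2, 19.9 and 21.3 CPM in cKO naive libraries, against 19.4, 20.5 and 22.1 CPM in control naive libraries. Its averaged log2 fold change was 0.01, with a 95% interval of -0.08 to 0.09. Pcdhb20 had 12.4, 15.1 and 17.6 CPM in cKO novelty libraries, against 14.7, 14.5, 16.2, 15.6 and 15.4 CPM in control novelty libraries, and 11.9, 14.5 and 15.7 CPM in cKO naive libraries, against 14.01, 14.4 and 14.8 CPM in control naive libraries. The cKO libraries of Pcdhb20 spread on both sides of the controls, and its log2 fold change was -0.02, with an interval of -0.12 to 0.09.

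Of the beta genes that did not pass, Pcdhb3 came nearest, with a log2 fold change of -0.20, an SE of 0.09 (edgeR adjusted p = 0.164). It had 6.27, 8.004 and 9.33 CPM in cKO novelty libraries, against 7.78, 8.64, 9.04, 7.12 and 10.02 CPM in control novelty libraries, and 6.52, 8.21 and 9.39 CPM in cKO naive libraries, against 7.38, 9.73 and 13.1 CPM in control naive libraries. The groups overlapped, with 4 of 13 cKO libraries below all control libraries. Over all 17 beta genes that did not pass, log2 fold changes ran from -0.20 in Pcdhb3 to 0.11 in Pcdhb21. Without control novelty library 3, Pcdhb11 passed as well. That library had 4.68 CPM of Pcdhb11, against 8.50 to 9.31 CPM in the other control novelty libraries.

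Summed over the 22 beta genes, cKO novelty libraries had 179, 192 and 197 CPM, against 206, 206, 202, 192 and 197 CPM in control novelty libraries. In naive mice the sum was 173, 188 and 199 CPM in cKO libraries, against 189, 203 and 216 CPM in control libraries. All 13 cKO libraries lay below the control median and 5 lay below every control library, and the cKO mean was 93.8% of the control mean. The log2 difference was -0.09, beside a between-library SD of 0.06. It carries no test because the members were chosen with earlier results of these data known. It was -0.15 among libraries numbered 1 to 3 in their titles and -0.03 among those numbered 4 and above. The alpha and gamma entries differed by 0.00 and 0.07 on the same scale, beside an SD of 0.07 each, and the difference between clusters was not tested.

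Along the chromosome, the lower beta genes lay mostly in the first part of the cluster. Of Pcdhb1 to Pcdhb12, 11 of 12 had an averaged log2 fold change below 0, with a median of -0.18, and 4 of the 5 that passed lie there. Of Pcdhb13 to Pcdhb22, 4 of 10 were below 0, with a median of 0.01, and Pcdhb19 alone passed. In naive mice the counts below 0 were 12 of 12, with a median of -0.29, and 5 of 10, with a median of 0.00. After novelty they were 10 of 11 tested, with a median of -0.11, and 3 of 10, with a median of 0.06. The place of the division was chosen after the values were seen, naive and novelty libraries are the same ones that enter the average, and no test was made of it.

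**Figure D4:**
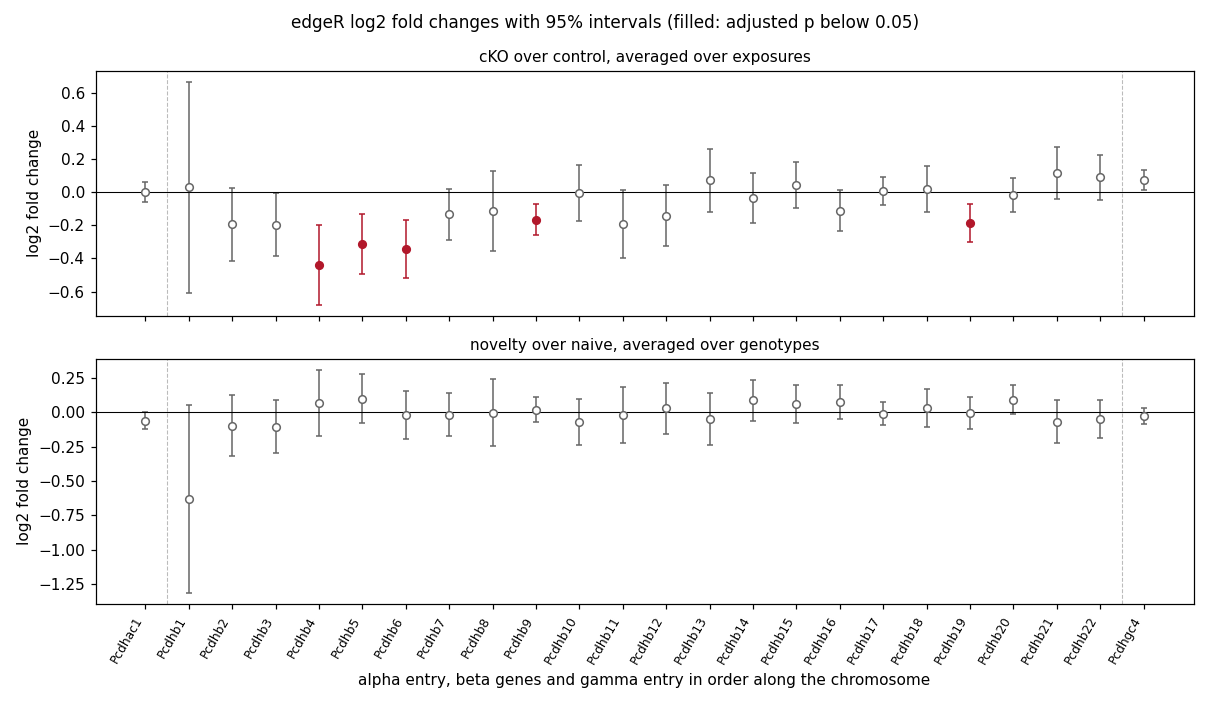
edgeR log2 fold changes of the 24 members with 95% intervals, in order along the chromosome with the alpha entry at the left and the gamma entry at the right, for cKO over control (upper panel) and novelty over naive (lower panel). Filled points have an adjusted p below 0.05. They are Pcdhb4, Pcdhb5, Pcdhb6, Pcdhb9 and Pcdhb19 in the upper panel, and there are 0 in the lower panel.

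The size of these differences varied with the library numbers in the sample titles. Among libraries numbered 1 to 3, the mean log2 difference between cKO and control libraries was -0.62 for Pcdhb4, -0.41 for Pcdhb5, -0.54 for Pcdhb6 and -0.21 for Pcdhb9. Among those numbered 4 and above it was -0.18, -0.23, -0.13 and -0.10 for the same genes. Pcdhb19 was at -0.17 among both. The direction was thus the same within each set for all 5, and the first 4 were larger among the low numbers, by a factor of more than 1.5. An edgeR fit with a term for these sets called the same 5 genes. Within novelty-exposed mice, Pcdhb4 and Pcdhb6 were at 0.07 and 0.02 among libraries numbered 4 and above, against -0.59 and -0.62 among those numbered 1 to 3. The higher-numbered set there holds only control libraries 4 and 5, against cKO libraries 4 to 7. What the numbers stand for is not stated, and their part in the result was not tested.

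Within each exposure, the genotype comparison gave fewer calls. After novelty, 1 of 23 members tested was lower in cKO libraries and 0 were higher, where 2.4% of all genes were lower and 2.13% higher, 4.53% in either direction. That gene was Pcdhb9, with a log2 fold change of -0.24, an SE of 0.06 (edgeR adjusted p = 0.0267). It was the only member whose groups did not overlap, and overlap was not counted over all genes. In the authors' deposited table it was also the only member called, with an adjusted p of 0.00263. That deposited table called 1312 of its 16057 genes. The edgeR call was lost without control novelty library 1 (adjusted p = 0.0701), 2 (0.0803) or 5 (0.0554), or without cKO novelty library 7 (0.0520).

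In naive mice 0 of 24 members passed in edgeR, where 0.801% of all genes were called, and 7 members had an unadjusted p below 0.05, against 13.6% of all genes. They were Pcdhb3, Pcdhb4, Pcdhb5, Pcdhb6, Pcdhb11, Pcdhb19 and the gamma entry. Pcdhb4 came nearest, with a log2 fold change of -0.55, an SE of 0.14 (edgeR adjusted p = 0.0898). DESeq2 called that gene and no other member (adjusted p = 0.0202), where it called 462 of 26450 genes. The authors' deposited table did the same (adjusted p = 0.0168), where it called 515 of its 16217 genes. Without control naive library 3, edgeR called Pcdhb4 (adjusted p = 0.0478), where it called 90 of 16355 genes. The genotype effect was not shown to differ between exposures for either gene. The interaction was -0.16 for Pcdhb9, with a 95% interval of -0.35 to 0.02, and 0.22 for Pcdhb4, with an interval of -0.26 to 0.70.

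The comparison of novelty-exposed with naive mice asks whether 15 min of novelty exposure changes these transcripts. No member passed. In cKO mice 0 of 24 members were called by edgeR, where 2.41% of all genes were, in control mice 0 of 23, where 1.22% were, and over both genotypes 0 of 24, where 6.55% were. DESeq2 and the authors' 2 deposited novelty tables called 0 members as well. At an unadjusted edgeR p below 0.05 there were 0 members in each of the 3 comparisons, against 13.9% of all genes in cKO mice, 11.04% in control mice and 17.6% over both. Pcdhb1, with few reads, was not among the 23 members tested in control mice. The authors' deposited table had it at -0.74 there (unadjusted p = 0.00378, adjusted p = 0.0970). In control mice DESeq2 and the edgeR fit without a filter each had 1 member at an unadjusted p below 0.05.

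The alpha entry came nearest over both genotypes, with a log2 fold change of -0.06, an SE of 0.03 (edgeR adjusted p = 0.286) and a 95% interval of -0.12 to 0.00. The gamma entry was at -0.02, with an interval of -0.08 to 0.03. Pcdhb1, on 1 to 19 reads per library, was at -0.63 and did not pass. For the beta genes other than Pcdhb1, fold changes lay between -0.10 and 0.10 and the 95% intervals between -0.32 and 0.31, so larger changes lie outside all of them. Among the beta genes with the smallest p were Pcdhb20 over both genotypes, at 0.09 ± 0.05 (SE), Pcdhb14 in cKO mice, at 0.17 ± 0.10, and Pcdhb2 and Pcdhb3 in control mice, each at -0.21. The summed beta level was 179, 192 and 197 CPM in cKO novelty libraries, against 173, 188 and 199 CPM in cKO naive libraries, and the log2 difference between novelty-exposed and naive mice over both genotypes was 0.01.

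Pcdhb14 had 9.72, 11.3 and 12.7 CPM in cKO novelty libraries, against 7.90, 9.66 and 12.1 CPM in cKO naive libraries, and 12.2, 10.2, 11.5, 9.81 and 10.4 CPM in control novelty libraries, against 9.64, 10.6 and 13.2 CPM in control naive libraries. Pcdhb2 had 3.23, 4.71 and 5.25 CPM in cKO novelty libraries, against 3.03, 4.50 and 5.58 CPM in cKO naive libraries, and 4.56, 4.67, 4.68, 5.16 and 4.51 CPM in control novelty libraries, against 3.73, 5.69 and 7.09 CPM in control naive libraries. For both genes every pair of groups overlapped.

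No member showed an adjusted p below 0.05 for the interaction, the difference between the genotypes in the response to novelty, in edgeR or in DESeq2, where 0% of all genes were called by edgeR. At an unadjusted p below 0.05 there was 1 member, Pcdhb1, against 4.11% of all genes. Pcdhb1 had an interaction of 1.49 ± 0.65 (SE; edgeR adjusted p = 0.99997). It had 0.161, 0.378 and 0.812 CPM in cKO novelty libraries, against 0.132, 0.473 and 0.779 CPM in cKO naive libraries. It had 0.396, 0.317, 0.220, 0.363 and 0.0593 CPM in control novelty libraries, against 0.307, 0.693 and 1.70 CPM in control naive libraries. These levels are 1 to 19 reads per library. The variation of Pcdhb1 beyond counting noise was 2.06 times the edgeR trend, the highest ratio among the members.

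Between libraries of a group, the members varied beyond counting noise like other genes of their level. The ratio of each gene's coefficient of variation beyond counting noise, as edgeR estimates it, to the trend was taken. Its median was 0.779 over the members, against 0.781 over all 16744 genes tested. Of the members, 7 of 24 lay above the trend, against 26.9% of all genes.

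Genes known to act on or with the clusters were read in the same fits. Of 22 chromatin organisers and silencers of the array, which include Ctcf, the cohesin subunit Rad21 and the silencers Smchd1 and Setdb1, 0 passed on average in either direction in edgeR, with a median log2 fold change of 0.01. Ctcf was at 0.03, Rad21 at -0.03 and Smchd1 at 0.01. After novelty 1 of the 22 was called, a share near the 4.53% of all genes called there. It was Setdb1, a histone lysine methyltransferase known in mouse neurons to maintain the structure of this array. Setdb1 was higher in cKO mice after novelty, at 0.23 ± 0.06 (SE; edgeR adjusted p = 0.0464), and was at -0.02 in naive mice.

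Of 22 partners and proteases of the proteins, 7 were lower and 0 higher, where 6.32% of all genes were lower and 5.72% higher, and their median was -0.08, against 0.01 for all genes. They were Cyfip2, Wasf1 and Brk1, subunits of the WAVE complex that binds a motif in the tails of several protocadherins, at -0.17, -0.19 and -0.09, together with the membrane and actin binding protein Marcks (-0.25), the inhibitory synapse adhesion protein Nlgn2 (-0.15), the adaptor Pdcd10 (-0.15) and the kinase Rock2 (-0.14). Adam10, the protease that cleaves gamma protocadherins at the surface, was at -0.07, and the kinases Ptk2b and Fyn, which bind their tails, were at -0.05 and -0.02. None of these 3 passed, and neither did the other WAVE subunits of the list, Cyfip1, Nckap1, Abi1, Abi2 and Wasf3. Of 19 non-clustered protocadherins and related large cadherins, 2 were lower and 0 higher, a share near the 12% of all genes called in either direction, with a median of -0.09. Pcdh17, at -0.30 ± 0.04 (SE; edgeR adjusted p = 8.15e-06), and Fat3, at -0.15 ± 0.05 (adjusted p = 0.0393), were the 2. In the novelty comparison over both genotypes 0 genes of these 3 lists passed.

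The 6 other counted genes between or next to the clusters, a set chosen after the data were seen, had 0 calls for genotype. Taf7, which encodes a subunit of the general transcription factor TFIID and lies between the beta and gamma clusters, was at -0.07 ± 0.05 (SE), Diap1 at 0.03 ± 0.03 and Hdac3 at -0.07 ± 0.03. The gene 3222401L13Rik was at -0.27 ± 0.12, and the genes Gm10545 and AC020971.1 were at 0.19 ± 0.18 and 0.06 ± 0.07. The library kit does not mark strand, so sense and antisense reads over a beta gene cannot be told apart.

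Some markers of some cell types were lower in cKO libraries averaged over exposures, where 6.32% of all genes were lower and 5.72% higher, 12% in all. The summed level of 6 CA1 pyramidal markers was 1025 to 1135 CPM in cKO novelty libraries, against 1209 to 1308 CPM in control novelty libraries, and 1007 to 1209 CPM in cKO naive libraries, against 1144 to 1379 CPM in control naive libraries. Mpped1 alone of the 6 passed on average (-0.17), which is near the share of all genes called, and all 6 were present in every library. Of 6 interneuron markers, 3 were lower (Gad1 at -0.13, Gad2 at -0.11 and Pvalb at -0.30), and their sum was 856 to 1005 CPM in cKO novelty libraries, against 929 to 1053 CPM in control novelty libraries, and 820 to 936 CPM in cKO naive libraries, against 913 to 1074 CPM in control naive libraries. Of the oligodendrocyte markers, Mog and Cnp were lower, at -0.31 and -0.21. The precursor marker Gpr17 (1 of 3) and the dentate marker C1ql2 (1 of 4) were also lower, at -0.19 and -0.86. Of 4 CA3, 5 astrocyte, 5 microglial, 4 endothelial and 5 choroid plexus markers (4 of them tested), 0 passed on average in edgeR. The part of these shifts in the beta result was not tested.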

How the data were processed

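Polyadenylated RNA of 24 CA1 libraries was analysed from tables the authors deposited. Each holds unnormalized whole read counts, 1 per Ensembl gene. The submitters' processing notes name the aligner STAR 2.3.0, the counter HTSeq, DESeq2 and the build GRCm38.p2. The annotation release is not given in the sources used here, nor are the strand setting and the rule for overlapping genes. Reads without a gene (7.58 to 10.4% of a library), ambiguous reads and reads without a unique position stayed out of library sizes. The authors' 4 deposited comparison tables hold, per the file headers, a base mean (a signal, the mean normalised count), a log2 fold change and a p-value with its adjusted value, and they supplied names, biotypes and coordinates.

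Counts were tested with edgeR 4.0.16 in R 4.3.3 (robust quasi-likelihood F test, TMM, filterByExpr at a minimum count of 10, Benjamini-Hochberg adjustment over all genes tested). Each pairwise comparison used its own groups, and the averages and the interaction used all 24 libraries. The code was tested on simulated data. Levels are CPM, also given per kilobase of GENCODE M21 exon inside the deposited span. Mean log2 differences within library numbers used a pseudocount of 0.1 CPM. Exact 50-base words of the beta genes were compared on the same reference. No pair of libraries held identical counts.

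Levels by group are given for 13 of 24 members, singly for control novelty libraries and as lowest, median and highest for the other groups. They are the C-type names, the 3 highest of each cluster, every member with an adjusted p below 0.05, and the 3 smallest p of each of 7 comparisons. The members, gene lists and markers were chosen with earlier results of these data known. Alternatives were DESeq2 1.42.0, upper-quartile scaling, no filter on low counts, library number as a block, a term for libraries numbered 1 to 3, and leaving out each library. Some marker results are not reported here.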

Additional observations from a re-analysis of the deposited data

Results flagged for a closer look

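Within each group, the library farthest from the others was compared with the group's range by Dixon's criterion at 95%, for the 24 members and the beta sum in 4 groups. Of 100 sets, 6 held such a library, where chance gives about 1 in 20. Pcdhb11 stood at 4.68 CPM in control novelty library 3, against 8.50 to 9.31 CPM in the other 4 libraries. Pcdhb18 stood at 10.996 CPM in control naive library 3, against 8.04 to 8.66 CPM in the others. Pcdhb7 was low in control naive library 1, at 8.39 CPM against 11.3 to 12.9 CPM. Pcdhb10 was high in control naive library 2, at 7.09 CPM against 4.85 to 5.61 CPM. Pcdhb2 was high in control novelty library 4, at 5.16 CPM against 4.51 to 4.68 CPM. Pcdhb22 was high in cKO novelty library 4, at 10.03 CPM against 7.62 to 8.51 CPM. All 6 were beta genes, as are 22 of the 24 members. None of the 5 beta genes lower in cKO libraries was among them. A small spread within groups favours a call, so this adds no support for those 5.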

How the results depend on the processing

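Of 155 recomputed counts of members called, 148 stayed within 1.5 times the reported count, as did 375 of 378 cluster sums within 1 SD, and 568 of 581 values of single members kept their direction and their side of the threshold. Among the values of single members 0 changed sign. Of the cluster sums 26 did, all sums whose size was at most 0.03 before and after. For genotype in naive mice the count was 1 with DESeq2 (Pcdhb4) and 0 to 1 with a library left out, in place of 0. For genotype after novelty it was 0 to 1 with a library left out, in place of 1. For genotype averaged over exposures it was 4 to 6 with a library left out and 5 to 6 otherwise, and DESeq2, the fit without a filter and the fit with a term for libraries numbered 1 to 3 called the same 5 genes. The log2 difference of the summed beta level in naive mice was -0.20 in libraries numbered 1 to 3 alone and -0.0234 in those numbered 4 and above, in place of -0.11, and averaged over exposures it was -0.0322 in those numbered 4 and above, in place of -0.09. The cause was not tested.

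Library numbers showed no clear pairing of the libraries. The correlation of same-numbered libraries' deviations ran from -0.13 to 0.28 over the 4 comparisons, and at most 1 pair per comparison exceeded 0.1. Whether libraries of the same number shared a batch was not tested. With the replicate number as a block, 0 members passed for genotype after novelty in place of 1 (Pcdhb9 at -0.22, edgeR adjusted p = 0.107), and 5 passed on average, the same genes as without it. Pcdhb1 rests on 1 to 19 reads per library. Among all genes, DESeq2 called 462 for genotype in naive mice in place of 131, 1162 for genotype after novelty in place of 733, 639 for novelty in cKO mice in place of 393 and 373 for novelty in control mice in place of 196. The block gave 70, 398, 207 and 97.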
